A study of Homo sapiens
Mus musculus and Homo sapiens and Mus musculus with 7 samples.

Results

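Human MIF, NME1 and NME2 were followed across libraries from a mixed culture of HEK293, a human embryonic kidney line, and NIH3T3, a mouse fibroblast line. The 3 genes are 3 of 58721 human genes in the counts. They were taken by GENCODE 29 symbol, and all 3 passed the filter on low counts that left 6244 human genes for testing. The set was chosen by measured values of these libraries. Which values is not recorded, and the choice is taken here to rest on the HEK293 monoculture beside the HA immunoprecipitates (IPs) and the co-culture input. Values against that monoculture are therefore given as a description.

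The study asked whether tagged ribosomes recover the RNA of 1 cell line from a mixture. In the co-culture, RPL22, a protein of the large ribosomal subunit, carried an HA tag in HEK293 cells and a V5 tag in NIH3T3 cells. The co-culture input, the HEK293 monoculture and the NIH3T3 monoculture are 1 library each, made without IP. HA IPs and V5 IPs from the co-culture are 2 libraries each, a first and a second. The labels place both first IPs on lysate 1, the second HA IP on lysate 5 and the second V5 IP on lysate 4. They do not say whether the monocultures carried a tag, which promoter drove the tagged protein, or whether the lysates came from separate cultures, so spread between IPs may be technical.

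MIF encodes macrophage migration inhibitory factor, a small secreted cytokine that also has tautomerase activity and signals through CD74. NME1 and NME2 encode the A and B subunits of nucleoside diphosphate kinase, which assembles as mixed hexamers and passes the terminal phosphate of ATP to other nucleoside diphosphates. NME1 is also known as a suppressor of metastasis and NME2 as a factor that binds the MYC promoter. All 3 are short, abundant housekeeping transcripts of proliferating cells, and NME1 and NME2 lie next to each other on the same strand.

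Human counts, the sum over all human genes, ranged from 81798 to 1213213 in the 6 libraries with human cells, and were lowest in the V5 IPs. Where human counts of the bulk co-culture input are low, fewer human cells and less RNA per cell cannot be told apart. Levels are given as CPM, that is, counts scaled to 1000000 human counts, with exact (Clopper-Pearson) 95% intervals that cover counting error only. Of 8 HEK293 markers, 6 had a count in the monoculture, led by KRT18 and VIM at 195 and 103 CPM, while CDH2, LIN28B, KRT8 and PAX2 had 1 to 19 counts and ENO2 and NEFM 0. The 8 summed to 341 CPM there and to 134 to 318 CPM in the other 5 libraries, with 2 to 7 detected. Of 8 human fibroblast genes that HEK293 cells should lack, 6 were at 0 in all 6 libraries. Being human genes, they say nothing of RNA from the mouse NIH3T3 cells. The NIH3T3 library held 0 counts of all 3 genes among 1999078 counts. A count of 0 allows up to 3 counts, which, scaled to the mouse counts, would supply at most 2.90 of the 164 counts on the 3 genes in the first V5 IP and 2.62 of 128 in the second.

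The counts do not come from the whole of each transcript. Counting ignored strand and, by the program's default, leaves out a fragment whose bases all lie in 2 genes. Fragments only partly in shared bases could not be followed, as the deposited files hold counts. MIF (ENSG00000240972.1, chr22:23894004-23895227, hg38, plus strand) shares 61.9% of its 1109 exonic bases with the antisense gene MIF-AS1, and 357 of those bases also with AP000350.4 on its own strand. None of the 345 coding bases of MIF-201 lies outside MIF-AS1. Its 422 bases of MIF alone all lie at the 5′ end, before the start codon. NME2 (ENSG00000243678.11, chr17:51165435-51171747, plus strand) and NME1 (ENSG00000239672.7, chr17:51153536-51162428, plus strand) both share exons with the readthrough gene NME1-NME2, which has no base of its own. Over all transcripts of a gene, the shared part is 22.9% of the 2632 exonic bases of NME2 and 18.6% of the 3438 of NME1. None of the 456 coding bases of NME2-207 lies in NME2 alone, and its 247 bases of NME2 alone all lie before the midpoint of the transcript. NME1-203 keeps 115 of 456 coding bases, and 468 of its 522 bases of NME1 alone lie beyond its midpoint. NME1-NME2 received 0 counts in 5 of the 6 libraries and 1 in the second HA IP, MIF-AS1 received 0 or 1, and AP000350.4 0 or 1.

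**Figure D1:**
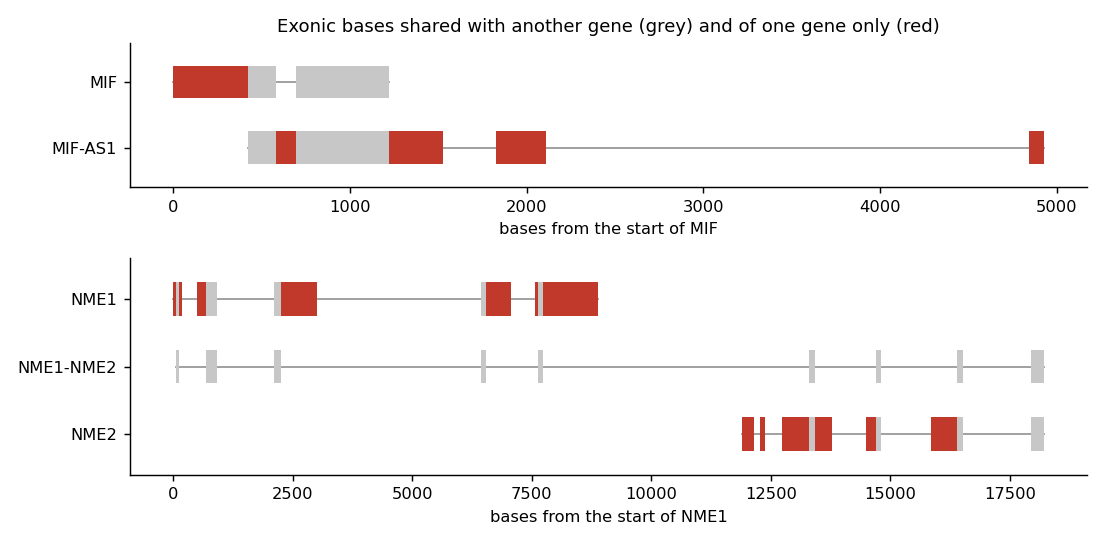
Annotated exonic bases at the MIF locus (top) and the NME1 and NME2 locus (bottom), by distance in bases from the start of MIF or NME1. Red bases belong to 1 gene, grey bases to 2 or more, and AP000350.4 is not drawn. Red in MIF is a single block of 422 bases at its 5′ end, and NME1-NME2 has no red base.

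The sequences below show which coding stretches can and cannot be told apart. The last coding exons of NME1 and NME2 are aligned base for base, with the bases that differ in capitals. They are shown because the exon of NME1 lies in NME1 alone and that of NME2 is shared with NME1-NME2. The first coding stretch of MIF is shown because every base of it is also exonic in MIF-AS1, and its capitals mark the start codon. All are from the GENCODE 29 transcripts on hg38, plus strand.
NME1 (chr17:51161728-51161842): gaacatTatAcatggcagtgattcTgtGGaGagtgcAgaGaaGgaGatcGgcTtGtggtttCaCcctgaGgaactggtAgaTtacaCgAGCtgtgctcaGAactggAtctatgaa
NME2 (chr17:51171487-51171601): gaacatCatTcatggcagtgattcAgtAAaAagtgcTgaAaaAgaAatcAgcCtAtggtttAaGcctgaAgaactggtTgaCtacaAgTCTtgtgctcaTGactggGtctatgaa
MIF (chr22:23894475-23894582): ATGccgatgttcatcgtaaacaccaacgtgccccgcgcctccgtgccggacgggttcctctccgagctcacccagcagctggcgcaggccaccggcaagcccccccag

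These exons of NME1 and NME2 were identical at 90 of 115 bases, and the coding sequences at 369 of 456 (80.9%), with no identical run longer than 23 bases. No 50-base stretch of NME1-203 occurred in a transcript of any gene other than NME1-NME2. Of the 801 such stretches of NME2-207, 36 also occurred in the processed pseudogene NME2P1, which held 48 counts over the 6 libraries. NME1 and NME2 thus differ enough in sequence for stretches of that length to be told apart. Bases in no other gene make up only 29.1% of NME2-207 and 44.9% of MIF-201, beside 55.5% of NME1-203. In NME1-202, the NME1 transcript with the most coding bases, they make up 35.3%, less than in MIF-201.

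MIF, the cytokine, was counted in every library with human cells and was lowest in the HEK293 monoculture. Its level was 357 CPM in the co-culture input (100 counts, interval 290 to 434), 366 and 536 CPM in the first and second HA IP, and 240 and 355 CPM in the V5 IPs. In the HEK293 monoculture it was 14.5 CPM (12 counts, interval 7.50 to 25.4). The intervals of the input, the first HA IP (323 to 413) and the first and second V5 IP (163 to 341 and 237 to 509) overlapped. That of the second HA IP (495 to 579) overlapped only that of the second V5 IP. The monoculture stood apart from all 5 other libraries. MIF was the human gene of rank 338 to 718 by CPM in those 5 libraries and of rank 4622 in the monoculture.

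NME2, the B subunit, was likewise lowest in the monoculture, at higher counts. It stood at 710 CPM in the input (199 counts), at 643 and 940 CPM in the HA IPs, at 496 and 782 CPM in the V5 IPs, and at 55.6 CPM in the HEK293 monoculture (46 counts, interval 40.7 to 74.2). The HA and V5 IPs overlapped, and only the monoculture lay outside the range of the others.

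NME1, the A subunit, varied less. It was at 732 CPM in the input (205 counts), 618 and 524 CPM in the HA IPs, 535 and 428 CPM in the V5 IPs, and 387 CPM in the HEK293 monoculture (320 counts, interval 346 to 432). The monoculture was again lowest, but its interval overlapped those of the first (416 to 677) and the second V5 IP (298 to 595).

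**Figure D2:**
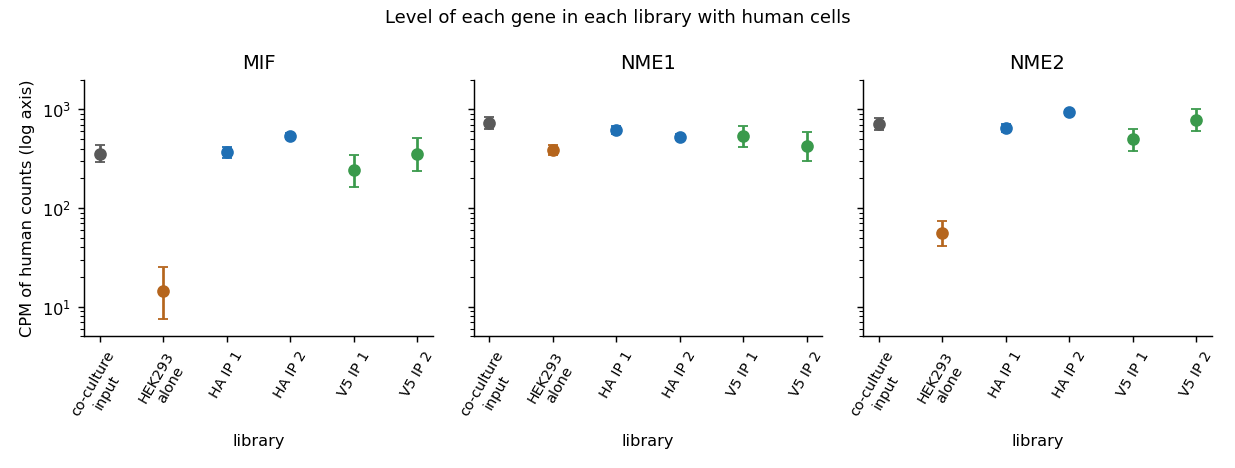
Level of MIF, NME1 and NME2 (CPM of human counts, log axis) in each of the 6 libraries with human cells. Points are single libraries and bars exact 95% intervals of counting error. MIF at 14.5 CPM and NME2 at 55.6 CPM in the HEK293 monoculture lie below all other libraries, and NME1 at 387 CPM lies near them.

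Compared per kilobase of exonic bases, the order of the 3 genes differed between libraries. In the HA IPs MIF was highest at 407 ± 108 CPM per kilobase (SD, n = 2), NME2 followed at 301 ± 79.8 and NME1 was lowest at 166 ± 19.3. The gap between MIF and NME2 was no larger than the SD of MIF. In the HEK293 monoculture the order was reversed, with NME1 at 113, NME2 at 21.1 and MIF at 13.1 CPM per kilobase. These lengths include bases shared with other genes, where fragments lying wholly within them could not be assigned.

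The co-culture input exceeded the HEK293 monoculture 24.6-fold for MIF (exact 95% interval of counting error 13.5 to 49.2), 12.8-fold for NME2 (9.22 to 18.0) and 1.89-fold for NME1 (1.58 to 2.26). Both are single libraries, so no replicate check exists. On a log2 scale with 1 CPM added, MIF and NME2 held places 2 and 3 from the top among 2179 protein-coding genes with a mean of at least 50 CPM, behind the extracellular matrix gene TNR, and NME1 held place 401. Of all 2255 human genes at that level, 37 (1.64%) were at least 4-fold higher in the input, MIF and NME2 among them, and nothing is read from this because the same contrast is taken to have led to the choice of genes.

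The HA IPs gave the same picture against the HEK293 monoculture. In edgeR's quasi-likelihood fit over all human genes the change was 4.98 ± 0.88 (log2, SE) for MIF, 3.87 ± 0.72 for NME2 and 0.55 ± 0.60 for NME1. In that fit 23 genes (0.368%) were called at an adjusted p below 0.05, and 3 (0.048%) were called higher in HA, namely MIF, NME2 and BCAR1, an adaptor protein of focal adhesions. The number called higher ranged from 3 to 42 over 12 alternatives, with 42 without the first HA IP, 24 without scaling factors and 17 with DESeq2. These calls are taken to have chosen the members and are no test of them.

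Against the co-culture input, made without IP, none of the 3 genes passed the test in the HA IPs. The fitted change was 0.20 ± 0.65 (log2, SE) for MIF, with an adjusted p of 0.970 in edgeR's quasi-likelihood test, 0.02 ± 0.58 for NME2 (0.996) and −0.55 ± 0.58 for NME1 (0.871). Called genes made up 0.625% of those tested (39 of 6244), and the median of all tested genes was 0.38, above each of the 3. None of the 3 had an unadjusted p under 0.05, and DESeq2 called none of them. The sign for MIF and NME2 was not stable: without the second HA IP they came to −0.38 and −0.56, and with DESeq2 size factors, which lower the median of all genes to 0.17, to −0.04 and −0.22.

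Against the V5 IPs, which target the mouse cells, none of the 3 passed either. The fitted change on human counts was 1.04 ± 0.55 (log2, SE) for MIF, with an adjusted p of 0.473 in edgeR's quasi-likelihood test, 0.74 ± 0.49 for NME2 (0.563) and 0.61 ± 0.50 for NME1 (0.642). The median of all tested genes was 0.37, and 23 genes (0.368%) were called. The median moved to 0.03 with DESeq2 size factors, and the 3 genes moved with it to 0.68 for MIF, 0.39 for NME2 and 0.27 for NME1. None of the 3 had an unadjusted p under 0.05, and DESeq2 called none. The lower HA value of MIF, 366 CPM, was just above the higher V5 value, 355 CPM, while the pairs overlapped for NME1 and NME2. This comparison shares its HA libraries with the other fits.

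**Figure D3:**
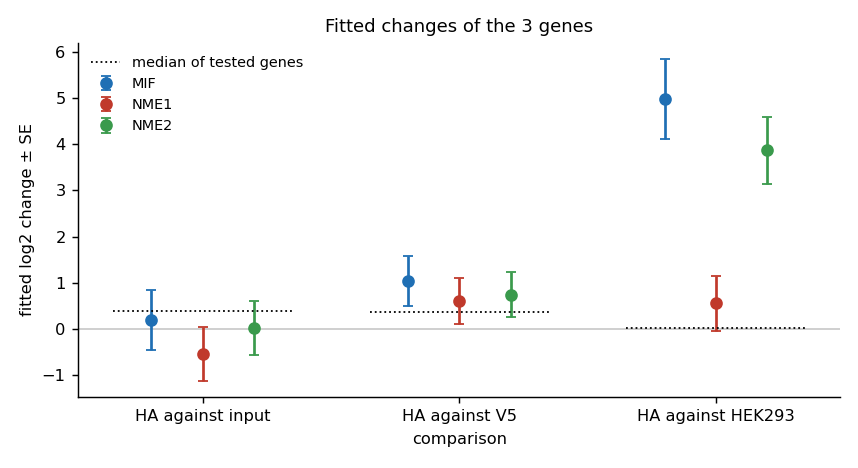
Fitted log2 change of MIF, NME1 and NME2 in the HA IPs against the co-culture input, the V5 IPs and the HEK293 monoculture, with SE as bars and the median of the 6244 tested genes dotted. Against the input and the V5 IPs the values lie between −0.55 and 1.04, and only MIF (4.98) and NME2 (3.87) against HEK293 lie far from the median.

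Scaled to all counts, human and mouse together, the 3 genes were higher in each HA than in each V5 IP, as human counts were in general. The mean CPM of all counts over the pair was 358 in HA and 15.5 in V5 IPs for MIF, a ratio of 23.2. The ratio was 19.0 for NME2 (629 and 33.0) and 17.4 for NME1 (457 and 26.3), beside 14.9 for all human genes summed.

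The balance between the 2 kinase subunits was measured as the NME1 share of NME1 plus NME2 counts, which needs no scaling between libraries. It was 50.7% in the co-culture input (404 counts, interval 45.8 to 55.7%), 49.0% in the first HA IP (920 counts, 45.7 to 52.3%) and 51.9% in the first V5 IP (133 counts, 43.1 to 60.6%). The intervals of these 3 libraries overlapped. The share was 35.8% in the second HA IP (1776 counts, 33.6 to 38.1%) and 35.4% in the second V5 IP (99 counts, 26.0 to 45.6%). In the HEK293 monoculture it was 87.4% (366 counts, 83.6 to 90.6%), above all others. Bases in no other gene lie mainly beyond the midpoint in NME1-203 and before it in NME2-207. Where the counted fragments lay could not be seen from counts per gene. Fragments wholly in shared bases could not be assigned, so the share is not taken as a ratio of transcript numbers.

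**Figure D4:**
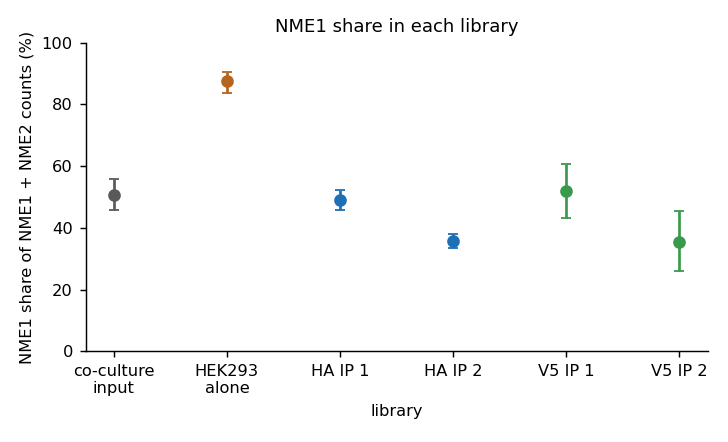
NME1 share of NME1 plus NME2 counts (%) in each library with human cells, with exact 95% intervals. The input and both first IPs lie at 49.0 to 51.9%, both second IPs at 35.4 and 35.8%, and the HEK293 monoculture at 87.4%.

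The second IPs differed from the first in the same direction for both antibodies. MIF was 1.46-fold higher in the second than in the first HA IP (counting interval 1.27 to 1.69) and 1.47-fold in V5 (0.857 to 2.53). NME2 was 1.46-fold higher in HA (1.31 to 1.63) and 1.58-fold in V5 (1.10 to 2.26). NME1 went the other way, at 0.848-fold in HA (0.751 to 0.959) and 0.799-fold in V5 (0.516 to 1.22). In V5 the intervals for MIF and NME1 include no difference. Among 2179 coding genes the HA difference of MIF and NME2 lay at percentile 90.5 for both, and the V5 difference at 71.3 and 76.3. NME1 lay nearer the middle, at percentile 43.6 in HA and 39.5 in V5. The median log2 difference of these genes was itself below 0, at −0.14 in HA and −0.02 in V5. With 1 library at each point, order and lysate cannot be told apart.

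Base composition and length went with some of these differences over all genes. The members differ in GC content but little in length. Over the longest transcript of any kind, GC content was 66.7% for MIF (percentile 99.1 of the 2179 genes). It was 60.9% for NME2 (89.2) and 47.8% for NME1 (48.7). The longest coding transcripts of the 3 measure 866 to 986 bases, at length percentiles 12.8 to 18.4. Across genes, Spearman's rho with GC content was 0.75 for input minus HEK293, −0.67 for HA against input, 0.28 for second minus first HA IP and −0.03 for second minus first V5 IP. With transcript length it was −0.30, 0.20, −0.34 and −0.02 in that order. For HA against HEK293 and HA against V5, rho with GC content was 0.32 and 0.04. With the GC trend removed from the fit, the change against the input was 0.47 (log2) for MIF, 0.55 for NME2 and −0.85 for NME1, where the median of all genes was 0.13, so that MIF and NME2 moved from below to above that median. Against V5 it was 0.34 for MIF, 0.09 for NME2 and 0.04 for NME1, with a median of −0.20, and against HEK293 it was 4.22, 3.49 and 0.59 in the same order.

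Exon sharing was tabulated against the HEK293 difference in genes other than the 3, as a description. The median of input minus HEK293 (log2) was −0.47 in 1371 coding genes whose longest coding transcript lies in no other gene, −0.22 in 515 with 80 to under 100% of it alone, 0.40 in 241 with 40 to 80% and 0.52 in 49 with under 40%. HA against input had medians of 0.34, 0.27, 0.01 and 0.07 in the same order. The groups also differed in median GC content, at 47.0, 48.6, 53.8 and 50.1%. Among transcripts under 1200 bases, again without the 3, the input minus HEK293 medians were 0.12, 0.22, 0.51 and 1.20, the last over 25 genes with quartiles of −0.21 and 1.87. Of the 29 other coding genes at least 4-fold lower in HEK293 than in the input, 79.3% shared exonic transcript bases. The share was 37.0% of all 2176 coding genes other than the 3, with the 29 included. The 29 include NDUFA13, KRTCAP2, RPS10 and MRPS24, which hold places 4 to 7 directly below MIF and NME2. These have 14.3 to 65.0% of the transcript alone. TNR, at place 1, has 98.9% alone and is still counted as sharing. Of places 8 to 12, NT5DC2 (94.0%), RIC8A and FKBP2 (100% each) are mostly or wholly alone, while EMC6 (25.1%) and PAM16 (38.6%) are not. Among genes with under 80% alone, the input minus HEK293 median was 0.24 in 70 genes with at least 75% of those bases before the midpoint, as in MIF and NME2, and 0.64 in 45 with at most 25% there, as in NME1. The 70 and the 45 also differed in median transcript length (1490.5 and 868 bases) and GC content (50.3 and 55.1%). The part of base composition, exon sharing or length in the levels of MIF and NME2 was not tested.

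**Figure D5:**
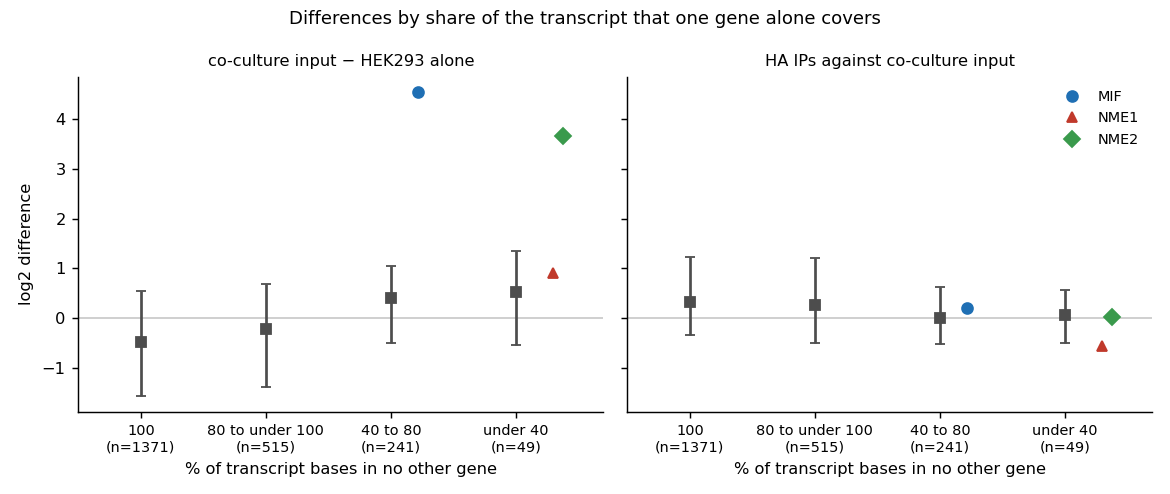
Log2 difference of the co-culture input minus the HEK293 monoculture (left) and fitted log2 change of HA IPs against input (right), by the percentage of a gene's longest coding transcript that no other gene covers. Squares and bars are medians and quartiles over genes other than the 3, and coloured marks are MIF, NME1 and NME2. On the left the medians run from −0.47 to 0.52, with MIF at 4.53 and NME2 at 3.65 far above them, and on the right MIF (0.20) and NME2 (0.02) lie within the quartiles of their bins and NME1 (−0.55) just below the lower quartile of its bin (−0.49).

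The genes whose levels ran most like MIF over the 6 libraries, by Pearson's r of log2(CPM + 1) among 2252 tested genes with a mean of at least 50 CPM, were NUDT1 (0.999), which clears oxidised nucleotides, the respiratory chain complex I subunits NDUFA11 (0.996), NDUFB8 (0.993) and NDUFS7 (0.987), and the RNase P subunit RPP21 (0.986). NME2 had NUDT1 (0.998), NDUFA11 (0.992), RPP21 (0.992), NDUFB8 (0.989) and RRP8 (0.986), a nucleolar protein. Among those of NME1 were MRPL4 (0.976), a mitochondrial ribosomal protein, ADRM1 (0.952), a proteasome ubiquitin receptor, HSD17B10 (0.934), a mitochondrial dehydrogenase, and SEZ6L2 (0.933). Without the HEK293 monoculture, r of the genes named was 0.803 (NDUFS7) to 0.972 (NUDT1) with MIF, 0.846 (NDUFB8) to 0.969 (RRP8) with NME2 and 0.885 (SEZ6L2) to 0.959 (MRPL4) with NME1. The r of MIF with NME2 was 0.998 over 6 libraries and 0.94 over the 5 without the HEK293 monoculture. For MIF with NME1 it was 0.63, and −0.02 without that library. NUDT1 itself was at 400 CPM in the input and 167 CPM in the HEK293 monoculture, a smaller gap than that of MIF.

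Among the receptors and partners of MIF, the counts were low. CD44, CXCR2 and ACKR3 had 0 counts in all 6 libraries, and CD74, the MIF receptor, had 1 count in total, in the HEK293 monoculture. CXCR4, another receptor, had 0 to 11 counts per library. DDT, the close relative of MIF, had 0 to 8 counts and DDTL, its neighbour of nearly the same sequence, 0 to 9, and reads may be split between them. Of the 8 genes only COPS5, a COP9 signalosome subunit that binds MIF, was tested. It was at 10.7 CPM in the input (3 counts), 172 CPM in the HEK293 monoculture, 89.1 and 78.3 CPM in the HA IPs, and 155 and 122 CPM in the V5 IPs, so that, unlike MIF, it was lowest in the input. Its fitted change against the input was 2.76 ± 1.17 (log2, SE), with an adjusted p of 0.421 in edgeR's quasi-likelihood test, and DESeq2 did not call it in any of the 3 comparisons.

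Of the 7 other NME family members, NME5, NME8 and NME9 had 0 counts and 4 were tested, of which none was called in any of the 3 comparisons by edgeR or DESeq2, and none had an unadjusted p under 0.05. NME4, the mitochondrial kinase, was at 225 CPM in the input, 102 CPM in the HEK293 monoculture, and 147 and 189 CPM in the HA IPs. NME3, which associates with the mitochondrial outer membrane, was at 150, 69.0, 145 and 136 CPM in the same libraries. Both were lowest in the monoculture among these 4 libraries. The others went the other way, with NME7 at 21.4 CPM in the input and 79.8 CPM in the monoculture and NME6 lower in the input (7 counts) than in the monoculture, where it was at 35.1 CPM (29 counts). The median log2 change of the 4 against the HEK293 monoculture was 0.35, with 2 above 0 and 2 below, beside 0.01 for all tested genes.

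Of 20 other nucleotide kinases and enzymes of nucleotide supply, 16 were tested, and edgeR called none in any of the 3 comparisons. An unadjusted p under 0.05 was reached by 2 against the input, by 0 against HEK293 and by 2 against V5. The medians were 0.40 against the input, 0.04 against HEK293 and 0.63 against V5, beside 0.38, 0.01 and 0.37 for all tested genes. The most abundant was DCTPP1, which hydrolyses dCTP, at 1064 CPM in the input, 527 CPM in the HEK293 monoculture, and 1077 and 1100 CPM in the HA IPs. TK1, the cytosolic thymidine kinase, was at 1235, 561, 495 and 433 CPM in these libraries, with a fitted change against the input of −1.60 ± 0.55 (log2, SE) and an adjusted p of 0.208 in edgeR's quasi-likelihood test. DESeq2 called TK1 lower in HA than in the input, at an adjusted p of 0.016, and none of the other 15.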

How the data were processed

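RNA was measured in 7 libraries. Per the labels' protocols, RNA came from standard extracts or IPs, and SMART-seq cDNA was made into Nextera DNA Flex libraries. The deposited files hold whole-number read counts per gene, made, per the file headers, with featureCounts 1.5.2 in paired mode, over exons and with strand option 0, on 1 combined human and mouse annotation. Reads went through STAR 2.5.2, Trim Galore, bcl2fastq and SAMtools on build hg38, per the submitters' processing notes, which give no order. All 58721 human identifiers matched GENCODE 29 in identifier and exonic length. Without strand, reads in bases shared by MIF and its antisense gene MIF-AS1 cannot be told apart. AP000350.4 and NME1-NME2 lie on the same strand as the members, so strand would not separate their reads. Amino acid sequences were not analysed here.

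Tests used edgeR 4.0.16 (quasi-likelihood, R 4.3.3) on human counts with TMM factors, in 1 fit of the 6 libraries with human cells. Genes were kept by filterByExpr (minimum count 10, total 15), and p-values were adjusted by Benjamini-Hochberg over all 6244 genes, two-sided, with a threshold of 0.05. The spread rested on the IP pairs (2 residual degrees of freedom, biological coefficient of variation 51.2%), and single libraries were assumed to vary like them. The test was checked on simulated data. Alternatives included DESeq2 1.42.0, other scalings, no filter, a GC trend (loess, span 0.5) and left-out libraries. Length and exon sharing used the transcript with the most coding bases, termed the longest coding transcript. GC content used the longest transcript of each gene, of any kind. scipy 1.17.1 and pandas 2.3.3 made the rest. Members, gene lists and alternatives were chosen with earlier results of these data known. Named beside the members were genes sharing their exons, the 2 most abundant of each list, up to 4 called genes per list with the largest change, and the 5 genes most like each member, of which 1 is not reported here. BCAR1, TNR, NDUFA13, KRTCAP2, RPS10, MRPS24, NT5DC2, EMC6, RIC8A, FKBP2 and PAM16, and listed genes beyond that rule, were named after their values were seen. The groupings by exon sharing were also made then.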

Additional observations from a re-analysis of the deposited data

How the results depend on the processing

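The call of MIF and NME2 as higher in HA than in HEK293 held under every alternative that gave an adjusted p, 11 for MIF and 12 for NME2; DESeq2 gave none for MIF. MIF ranged from 4.22 to 5.33 and NME2 from 3.33 to 4.22. The same single HEK293 library entered each of these fits. As this contrast is taken to have chosen the genes, the calls are no test of them. No alternative brought a call of any of the 3 genes against the input or V5, nor of NME1 against HEK293. Against the input, MIF turned to −0.042 with DESeq2 size factors and with DESeq2's own test and to −0.24 with the replicate block, and ranged from −0.38 to 0.54 with an IP left out. NME2 turned to −0.22 with DESeq2 size factors and with DESeq2's own test, −0.44 with the replicate block, −0.13 with only the groups compared and −0.14 without HEK293, and ranged from −0.56 to 0.35 with an IP left out. The cause was not tested.

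Genes called against the input numbered 39, and 68 with DESeq2 size factors, 104 without factors, 64 with DESeq2, 260 with only the groups compared, 77 without HEK293 and 29 to 140 with an IP left out. Against HEK293 they numbered 23, and 53 without factors, 39 with DESeq2, 48 with only the groups compared and 26 to 63 with an IP left out. Against V5 they numbered 23, and 38 without factors, 40 with the GC trend removed and 18 to 117 with an IP left out. Without the first HA IP there were 63 calls against HEK293 and 59 against V5. With either V5 IP left out (first, then second) there were 140 and 137 against the input, 50 and 48 against HEK293, and 52 and 117 against V5. The replicate block (IP order) gave 49, 20 and 24 calls. The first minus second differences of HA and V5 correlated at 0.08 over 6244 tested genes and at 0.19 over 2255 of at least 50 CPM. The first IPs share a lysate and the second do not, so the order was not taken as a pairing. Mitochondrially encoded genes left out of the denominator moved no level beyond its error.

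Per kilobase of bases in no other gene, levels in the HA IPs were 1068 CPM for MIF, 390 for NME2 and 204 for NME1. Summed, NME1, NME2 and NME1-NME2 came to 1442 CPM for the input, 443 for HEK293, 1363 for HA and 1121 for V5 IPs. Depth limits MIF in HEK293 most (12 counts), then the V5 IPs at 29 to 69 counts per gene. Groups of 2 are too small for an outlier test.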
